A study of Mus musculus with 20 samples.

Results

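The genes described here encode the subunits of integrins and laminins in the mouse. They were chosen by symbol, as protein-coding genes of the GRCm38 annotation named Itga or Itgb with a number, Itgal, Itgam, Itgav, Itgax, Itgae, Itgad, or Lama, Lamb or Lamc with a number. This gave 39 of 21631 genes on chromosomes 1 to 19 and X. Of these, 38 encode integrin or laminin subunits, and Itgb3bp, which matched by its symbol, encodes a protein that binds an integrin tail and works at the centromere. Chromatin accessibility was read by ATAC-seq, in which a transposase cuts open DNA, in C2C12 cells, an established line of mouse myoblasts that can form muscle fibres in culture. The data are 20 lists of peaks, 1 per library, in 10 groups of 2.

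Cells were wild-type (WT) or Setd2 knockout (KO). Each genotype was sampled at D0 and again at D1 and D5, when the medium was either the control (CTL) or restricted in methionine (MR). No medium is given for D0, and what the days count from is not stated in the sources used here. Setd2 encodes a methyltransferase of histone H3 that acts along transcribed genes. The titles number the KO libraries of each group KO_1 and KO_2, both as a first replicate, which is read here as KO line 1 and KO line 2. That these are separate lines is not stated otherwise. On this reading the same lines recur in every KO group, and the genotype cannot be told apart from differences between these lines and the WT culture. How the lines were made is not stated in the sources used here, and nothing says that the WT replicates came from separate cultures, so the p-values measure only the spread between these libraries.

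Laminins are trimers of an alpha, a beta and a gamma chain that form the basement membrane, the sheet of matrix around each muscle fibre. Integrins are receptors of 1 alpha and 1 beta subunit that span the cell membrane and tie such matrix to the actin skeleton. In skeletal muscle the main laminin chain is the product of Lama2, its receptor pairs the products of Itga7 and Itgb1, and the loss of Lama2 or Itga7 causes muscular dystrophy. Myoblasts also use integrins of fibronectin and of vascular cell adhesion molecules when they migrate and fuse.

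The lists of 18 libraries held 20847 to 69881 peaks. Those of KO line 1 at D5 held 644 (CTL) and 1881 (MR) peaks, with a peak near 3 and 4 of the 39 genes, and were left out of the counts and tests, so that a D5 KO value is 1 library of KO line 2 per medium. The shortest of the 18 were of D5, and longer lists name more regions: WT D5 CTL lists held 20847 and 22465 peaks and WT D1 CTL lists 45545 and 60173. The number of reads per library was not used here, and list length stands for depth. In such bulk libraries, fewer open cells and weaker opening per cell cannot be told apart. Of 10 listed muscle markers, 9 to 10 had a peak within 10 kb in each WT library and 5 to 9 in each KO library. Over all genes the share was 53.0% to 72.9% per library. Ptprc and Epcam, markers of leukocytes and epithelium, had no peak in any of these 18. Of the 10 leukocyte and platelet markers listed, 3 to 7 had a peak in each WT and 4 to 7 in each KO library, with Cd79a, Spi1 and Gp1bb in all 18. Of the 5 epithelial markers it was 2 to 4 and 1 to 4, with Cdh1 in all 18. Endothelial, fibroblast and neural markers, 5 of each, had peaks at 3 to 5, 3 to 5 and 2 to 4 in WT. In KO these were 4 to 5, 4 and 3 to 4, with 3, 3 and 2 markers in all 18. Peaks near markers were thus not limited to muscle. A peak within 10 kb of a marker can belong to a neighbouring gene. Of the 10 muscle markers, 7 ranked lower in KO at an adjusted p of at most 0.05 (among them Myog, with a peak in 10 of 10 WT and 1 of 8 KO libraries), and 0 ranked higher, where 22.1% of all genes passed this test, 10.6% higher and 11.5% lower. The part of these markers in the genotype differences below was not tested.

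Promoter windows differed in which libraries had a peak on them, and 6 are shown, chosen after their calls were seen. Each sequence is the 250 bases before the start of transcription, 5′ to 3′ on the strand of the gene, from RefSeq on GRCm38.p6. The calls were made on a longer window, which also holds the 50 bases after the start, and any overlap with a peak counted. A peak therefore need not cover the bases printed. The first 3, at Itga4, Lama5 and Lama2, were called in all 10 WT libraries and in 2, 3 and 4 of 8 KO libraries. The next, at Itga3 and Lamb2, were called at D0 and D1 and in no D5 library, and the last, at Itgb5, was called in all 18. Capitals mark matches, on either strand, of the E-box of muscle transcription factors (CANNTG), the AP-1 site (TGANTCA), the TEAD site (GGAATG) and the SP site (GGGCGG, printed as CCGCCC where it lies on the other strand).
Itga4, chr2:79255176-79255425, plus strand: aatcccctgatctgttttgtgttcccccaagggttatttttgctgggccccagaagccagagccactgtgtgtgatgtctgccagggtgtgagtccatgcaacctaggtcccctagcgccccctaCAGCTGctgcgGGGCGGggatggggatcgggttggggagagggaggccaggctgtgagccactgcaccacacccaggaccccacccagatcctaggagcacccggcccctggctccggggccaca
Lama5, chr2:180225860-180226109, minus strand: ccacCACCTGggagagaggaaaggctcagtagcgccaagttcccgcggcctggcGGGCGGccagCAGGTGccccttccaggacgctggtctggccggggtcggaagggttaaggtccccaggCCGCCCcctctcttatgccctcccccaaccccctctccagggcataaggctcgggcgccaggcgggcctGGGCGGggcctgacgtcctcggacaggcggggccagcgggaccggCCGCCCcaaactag
Lama2, chr10:27616943-27617192, minus strand: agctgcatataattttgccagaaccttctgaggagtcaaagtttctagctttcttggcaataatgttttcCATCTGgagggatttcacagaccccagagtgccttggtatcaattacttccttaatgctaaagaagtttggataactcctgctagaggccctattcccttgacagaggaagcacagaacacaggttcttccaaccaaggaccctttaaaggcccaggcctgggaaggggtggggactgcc
Itga3, chr11:95076715-95076964, minus strand: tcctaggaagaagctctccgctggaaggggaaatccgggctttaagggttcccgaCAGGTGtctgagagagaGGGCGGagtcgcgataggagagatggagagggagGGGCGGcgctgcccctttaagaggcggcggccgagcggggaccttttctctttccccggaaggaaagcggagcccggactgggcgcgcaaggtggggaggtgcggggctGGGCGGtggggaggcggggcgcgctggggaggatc
Lamb2, chr9:108479612-108479861, plus strand: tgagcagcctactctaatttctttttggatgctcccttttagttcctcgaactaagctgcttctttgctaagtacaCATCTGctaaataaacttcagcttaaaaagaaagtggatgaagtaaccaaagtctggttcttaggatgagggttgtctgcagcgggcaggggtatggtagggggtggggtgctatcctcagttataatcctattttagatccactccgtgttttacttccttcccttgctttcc
Itgb5, chr16:33829415-33829664, plus strand: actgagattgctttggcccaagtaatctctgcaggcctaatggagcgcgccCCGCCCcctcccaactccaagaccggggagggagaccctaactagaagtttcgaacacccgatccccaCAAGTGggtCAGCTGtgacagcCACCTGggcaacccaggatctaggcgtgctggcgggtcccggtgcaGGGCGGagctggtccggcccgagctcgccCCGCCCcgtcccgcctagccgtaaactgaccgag

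In Itga4 the E-box CAGCTG lay 125 bases and the SP site 114 bases before the start. Lama5 had 4 SP matches and 2 E-boxes, Itga3 had 3 SP matches and 1 E-box, and Itgb5 had 3 of each. Lama2 and Lamb2 each had 1 E-box and no SP match, and their windows were the poorest of these 6 in G and C, at 47.2% and 43.6% against a median of 55.6% over the windows of all genes. None of these 6 held an AP-1 or TEAD match. E-boxes stood in 62.8% and SP sites in 43.1% of all 21045 windows, CAGCTG (a subset of the E-boxes) in 12.2%, the TEAD site in 11.6% and the AP-1 site in 6.17%. Of the 25 integrin and laminin genes with a window in the table, 19 held an E-box, 7 CAGCTG, 8 an SP site, 3 a TEAD site and 1, Itgax, an AP-1 site. A match is only a match of letters. The promoter regions of Lama2 (chr10:27616683-27616967) and Lamb2 (chr9:108479856-108480105) did not reach the E-box marked in each. That of Lama5 (chr2:180225638-180225953) reached neither of its E-boxes.

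A peak within 10 kb was found for 23 of the 39 genes in all 18 libraries (59.0%, against 44.3% of all genes). These genes are long, with a median of 61.8 kb for all 39 against 17.3 kb, and the part of length in this share was not tested. Another 15 had a peak in 1 to 17 libraries, and Itgax, a leukocyte integrin subunit, had none. Each of the 18 libraries had peaks near 26 to 37 of the genes (66.7% to 94.9%), where 53.0% to 72.9% of all genes had one.

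The peaks fell into 361 regions after overlapping peaks of all libraries were merged, and 45 of these (12.5%, against 10.995% of all regions) had a peak in all 18 libraries. By place, 247 lay inside a gene, 16 inside and within 1 kb of a gene end, 16 at a promoter window and 82 outside. Itgb5 had 29 regions and Lama5 had 25, whereas Itga4 had 2.

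How open a gene was relative to others was expressed as its rank, the percentile of its strongest peak (by −log10 q-value) within 10 kb among all 21631 genes of the same library, where 100 is the strongest and genes without a peak share a place at the bottom (rank 13.5 to 23.5 in these 18 libraries). Between the WT libraries of a group, the median absolute difference in rank over the genes with a peak in both was 1.82 to 4.07. Between the 2 KO lines it was 9.41 to 10.7, so the lines stood further apart than WT replicates. A rank measures the strongest peak near a gene and not its transcription.

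**Figure D1:**
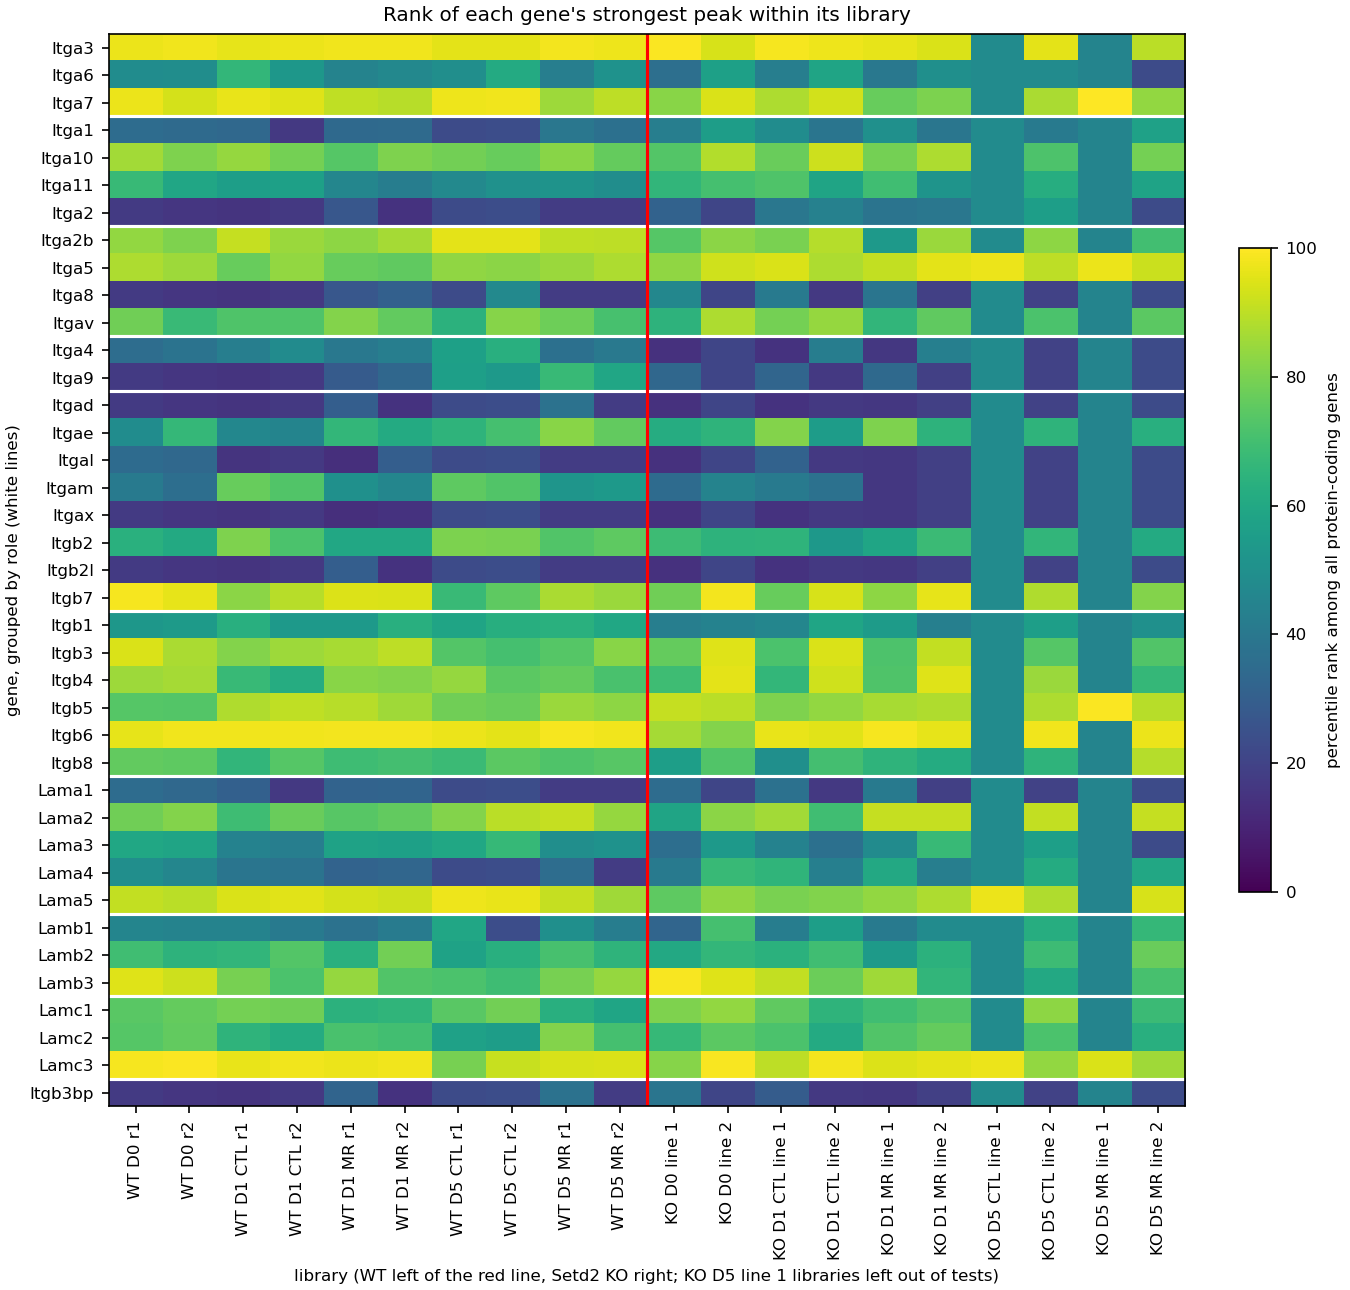
Percentile rank (colour, 0 to 100) of the strongest peak within 10 kb of each gene (rows, grouped by role) in each library (columns, WT left and Setd2 KO right of the red line; r is the replicate). Itga3 and Itgb6 ranked 81.6 or more in the 18 libraries used, Itgax had no peak, and the libraries of KO line 1 at D5, with 644 and 1881 peaks, placed nearly every gene in the shared place at the bottom.

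Among the receptors of laminin, Itga3 (a subunit of skin and kidney) ranked 95.9 to 98.4 in the WT libraries, with a median of 97.4, and 89.5 to 99.4 in the KO libraries, with a median of 96.1. Its strongest peak in all 18 libraries lay outside Itga3, inside the neighbouring gene Pdk2 (chr11:95041230-95041614), so this rank may describe Pdk2. Itga7, the muscle laminin receptor subunit, had its strongest peak inside the gene (chr10:128935903-128936424, 16 of 18 libraries) and ranked 85.4 to 97.9 in WT. Itga6, which also pairs with Itgb1 in myoblasts, ranked in the middle, at a median of 49.1 in WT and 45.4 in KO. Itgb1, the beta subunit shared by most muscle integrins, had a peak at its promoter (chr8:128685086-128686595) in all 18 libraries but ranked only 52.9 to 63.4 in WT.

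Among the laminin chains, Lama5 (the chain of embryonic basement membranes, WT median 93.0), Lamc3 (WT median 96.8) and Lama2 (WT median 79.9) ranked high. Lamb1, Lamb2 and Lamc1, the common beta and gamma chains, had WT medians of 43.5, 65.6 and 74.3. Lama1 had no peak in any D5 library. Itgb6, a subunit known from epithelia, had its strongest peak inside the gene in all 18 libraries (chr2:60688989-60689440) and a WT median of 97.9. Of the 8 leukocyte integrin subunits, 3 had a peak in every library: Itgae, Itgb2 and Itgb7. The strongest peak at Itgae overlapped Haspin, a gene inside an intron of Itgae, and those at Itgb4, Lamb2, Itgad and Itgb2l overlapped Sap30bp, Usp19, Cox6a2 and Igsf5.

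The peak lists do not measure Setd2 itself, so the labels were taken as given. KO was compared with WT within each of the 5 combinations of day and medium, by an exact two-sided permutation test over the libraries with Benjamini-Hochberg adjustment over all genes or regions whose values allow a p of 0.05. The test of rank also required a peak in at least 2 of the libraries compared, which left out Itgax and Itgb2l. In rank, 10 of 37 tested integrin and laminin genes passed at an adjusted p of at most 0.05, 5 higher and 5 lower in KO. Over all genes 22.1% passed, 10.6% higher and 11.5% lower, so the share among these genes was near the background. The median difference over the tested integrin and laminin genes was −0.72 and over all tested genes −0.03. The genes higher in KO were the collagen receptor subunits Itga1, Itga2 and Itga11, the fibronectin receptor subunit Itga5 and the laminin chain Lama4. Those lower in KO were Itga7, Itgb1, Itga4, Itgam and Itga2b.

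**Figure D2:**
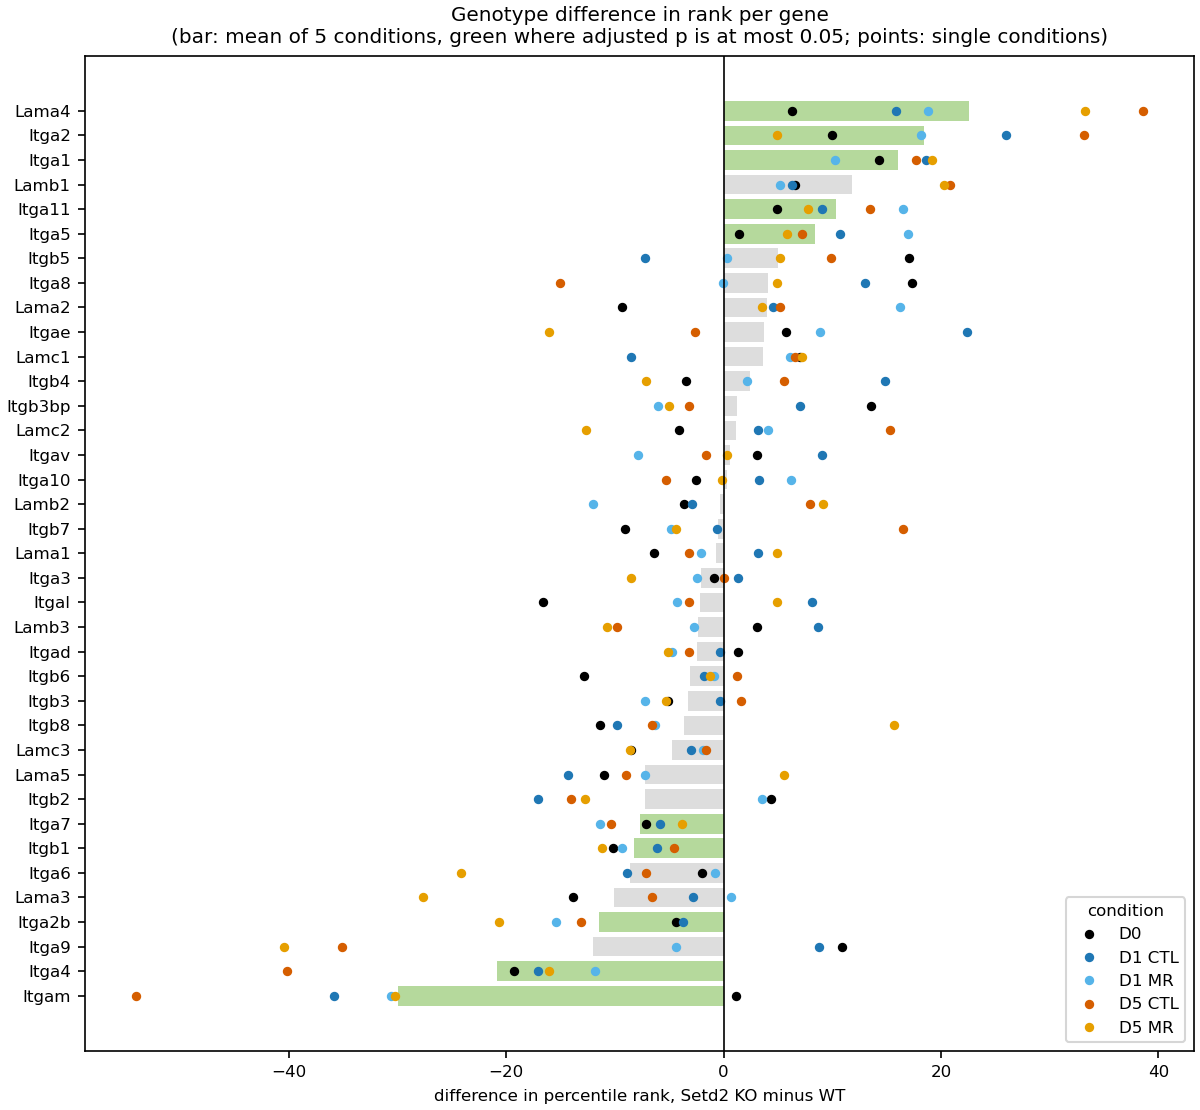
Difference in percentile rank, Setd2 KO minus WT, for the 37 tested genes: bars are the mean of the 5 conditions, points the single conditions, and green bars the genes with an adjusted p of at most 0.05. The points of Itga1, Itga2, Itga11, Itga5 and Lama4 lie right of 0 in all 5 conditions, and those of Itga7, Itgb1, Itga4 and Itga2b left of 0 in all 5, while Itgam lies left of 0 in 4. At D5 MR neither genotype had a peak at Itga2, so that point is only a difference between bottom places (17.7 in WT, 22.7 in KO).

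Itga1 ranked 16.7 to 39.5 in WT (median 34.4) and 39.0 to 57.3 in KO (median 45.8). It had a peak in 7 of 10 WT and 8 of 8 KO libraries, so its lowest WT values are the bottom place of genes without a peak. The ranges met only at their edges: the highest WT value was above the lowest KO value. The difference was 16.01 (SD within groups 6.55, adjusted p = 0.00803 by the exact permutation test), and it was 15.7 in KO line 1 and 13.1 in KO line 2 over D0 and D1. Differences by KO line below, also those of neighbouring genes and chromosomes, cover D0 and D1 unless D5 is named. The strongest peak of Itga1 lay inside the gene (chr13:114964290-114964536), and its promoter was called in 3 KO libraries, all of line 1, and in no WT library.

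Itga2, the neighbour of Itga1 on chromosome 13, had a peak in 1 of 10 WT and 6 of 8 KO libraries. Its strongest region lay outside the gene, 5′ of its start (chr13:114933687-114933841). It ranked 14.8 to 27.2 in WT (median 17.4) and 21.0 to 56.2 in KO (median 39.1), a difference of 18.4 (SD 4.27, adjusted p = 0.00803 by the exact permutation test). The WT values are mostly the bottom place of genes without a peak, and at D5 MR so was the KO value. Other genes within 5 Mb shifted by a median of 2.38 in line 1 and 0.24 in line 2, less than either gene did.

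Itga11 ranked 42.4 to 67.2 in WT (median 50.9) and 51.7 to 72.4 in KO (median 64.0), so the groups overlapped when conditions were pooled. Within conditions the difference was 10.3 (SD 6.26, adjusted p = 0.0115 by the exact permutation test) and positive in 5 of 5. Line 1 differed by 14.6 and line 2 by 5.70.

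Itga5 had strong peaks inside the gene in every library, the strongest at chr15:103358582-103359672. It ranked 75.7 to 87.7 in WT (median 83.5) and 83.4 to 95.7 in KO (median 91.3). The difference was 8.43 (SD 3.73, adjusted p = 0.0200 by the exact permutation test), with 8.46 in line 1 and 10.9 in line 2. Itga5 was also 1 of the few genes with a peak in both short lists of KO line 1 at D5. Itgav, the other widely used receptor subunit for fibronectin and vitronectin, differed by 0.60 (SD 8.52, adjusted p = 0.924 by the exact permutation test).

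Lama4, the laminin chain of vessels and of fat and nerve sheaths, ranked 17.7 to 49.5 in WT (median 34.3) and 40.9 to 67.2 in KO (median 60.0). The difference of 22.6 (SD 10.7, adjusted p = 0.0224 by the exact permutation test) was the largest upward one among the tested genes. Genes within 5 Mb went the other way, with medians of −4.26 in line 1 and −4.70 in line 2. At D5, no WT CTL library had a peak at Lama4, against 1 of 1 KO library. Over all conditions 7 of 10 WT and 8 of 8 KO libraries had one, so the lowest WT ranks are bottom places.

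Itga7 ranked 85.4 to 97.9 in WT (median 94.4) and 76.8 to 94.4 in KO (median 85.6). The difference was −7.68 (SD 3.79, adjusted p = 0.0115 by the exact permutation test) and negative in 5 of 5 conditions. Over D0 and D1, line 1 differed by −11.6 and line 2 by −4.57. The 78 other genes within 5 Mb had medians of −2.29 in line 1 and −4.66 in line 2. Over these days Itga7 in line 2 thus moved no further than its neighbours. At D5, Itga7 in line 2 ranked 87.4 in CTL and 83.9 in MR, against WT means of 97.7 and 87.7. Chromosome 10 as a whole had medians of −2.87 and −4.03.

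Itgb1 ranked 52.9 to 63.4 in WT (median 59.1) and 42.7 to 58.8 in KO (median 48.1). It differed by −8.27 (SD 5.65, adjusted p = 0.0268 by the exact permutation test), with −8.93 in line 1 and −8.13 in line 2. Neighbouring genes had medians of −2.85 and 5.27. The promoter peak itself stayed in every library.

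Itga4, a receptor subunit for fibronectin and for vascular cell adhesion molecule on fusing myoblasts, was lower in KO both in rank and in calls. Every WT library, 10 of 10, had its promoter region, as did 2 of 8 KO libraries, both of line 2 at D1. Its only other region, 1261 bases outside the gene (chr2:79253845-79254165), was called in the 4 WT libraries of D1 and in no other. Its rank ran from 35.8 to 63.2 in WT (median 41.7) and from 14.4 to 43.1 in KO (median 20.4). The difference was −20.9 (SD 10.1, adjusted p = 0.0174 by the exact permutation test), with −26.3 in line 1 and −5.84 in line 2. As a call, Itga4 was 1 of 6 tested integrin and laminin genes and passed as lower in KO, with a difference of −0.8 in the share of libraries (adjusted p = 0.0376 by the exact permutation test). Over all genes 12.9% passed, 6.87% higher and 6.03% lower. Itga2 (0.6, adjusted p = 0.0509) and Itgam (−0.6, adjusted p = 0.0646) missed the threshold in this exact permutation test.

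Itgam and Itga2b, subunits of leukocytes and platelets, ranked lower in KO, with their strongest peaks mostly outside the genes. Itgam ranked 36.0 to 76.9 in WT and 16.2 to 44.6 in KO, a difference of −29.9 (SD 3.35, adjusted p = 0.0174 by the exact permutation test). It had a peak in 10 of 10 WT and 4 of 8 KO libraries, so the lowest KO values are bottom places. At D0 the mean ranks were 38.6 in WT and 39.7 in KO. Its strongest region lay 3795 bases before the gene (chr7:128058652-128058845). Itga2b ranked 80.7 to 96.0 in WT and 53.7 to 89.0 in KO, a difference of −11.5 (SD 8.66, adjusted p = 0.0412 by the exact permutation test). Over D0 and D1 the difference was −16.1 in line 1 and 0.40 in line 2. At D5, Itga2b in line 2 ranked 82.9 in CTL and 69.5 in MR, against WT means of 96.0 and 90.2. The strongest peak of Itga2b overlapped Fam171a2 in 10 of 18 libraries. With peaks within 2 kb in place of 10 kb, the differences were 4.02 for Itgam and 4.15 for Itga2b, both with the opposite sign. Lama5 (−7.18, SD 2.71, adjusted p = 0.0504 by the exact permutation test) missed the threshold. Of the other genes of the muscle laminin axis, Lama2 differed by 4.03 (adjusted p = 0.458), Lamb1 by 11.8 (adjusted p = 0.227), Lamb2 by −0.29 (adjusted p = 0.957), Lamc1 by 3.67 (adjusted p = 0.250), Itga3 by −2.10 (adjusted p = 0.213) and Itga6 by −8.60 (adjusted p = 0.169) in the same exact permutation test.

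In rank, no gene of the whole table passed without the D5 libraries, without either WT replicate or without KO line 2, and 8 integrin and laminin genes passed without KO line 1, 7 of them among the 10, beside 28.6% of all genes.

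Of single regions, 11 of 75 tested passed for genotype, 1 higher and 10 lower in KO, against 11.5% of all tested regions, 4.63% higher and 6.86% lower. The region higher in KO lay inside Itgb8, a subunit that activates transforming growth factor beta, near the end of the gene away from its start (chr12:119164247-119164472). All 8 KO libraries and 0 of 10 WT libraries had it (adjusted p = 0.0327 by the exact permutation test). Conversely a region 7478 bases from Itga2b, inside Fam171a2 (chr11:102445469-102445819), stood in all 10 WT libraries and 0 of 8 KO libraries (adjusted p = 0.0327 by the same exact permutation test). These 2 were the only ones among the 11 that split the genotypes without exception.

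Inside Itga7 a region (chr10:128937842-128938081) was called in all 10 WT libraries and in 2 KO libraries, both of line 1 (adjusted p = 0.0403 by the exact permutation test). Lama5 had 2 such regions: one inside the gene (chr2:180185342-180186012) with 10 WT and 1 KO calls, and one 4650 bases outside (chr2:180230554-180230760) with 8 WT and 0 KO calls, both with an adjusted p of 0.0327 in the exact permutation test. A region inside Itgb6 (chr2:60715869-60716064) had 10 WT and 1 KO calls, with the same adjusted p of 0.0327 in the exact permutation test. One inside Lama2 (chr10:27084803-27085045) had 8 WT and 1 KO calls, one outside Itgam, given above, had 10 and 2, and one beyond Lamc3, inside Aif1l (chr2:31957342-31957510), had 8 and 0. The promoter region of Itga4 (chr2:79255231-79255885) and a region inside Itgb2 complete the set. The promoter regions of Lama5 (10 WT and 3 KO calls, adjusted p = 0.0504) and Lama2 (10 and 4, adjusted p = 0.0680) missed the threshold in the exact permutation test. When a call needed 50% of the region to be covered, 0 of the 11 passed, as did 0 of all 21327 tested regions. Among the 20000 strongest peaks 7 regions were higher and 10 lower, beside 1368 higher and 1525 lower of 10319 tested over all regions. Without KO line 2, 10 were higher and 10 lower, beside 4033 higher and 1734 lower of 7670. The balance of directions did not hold there, and it also shifted over all regions.

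**Figure D3:**
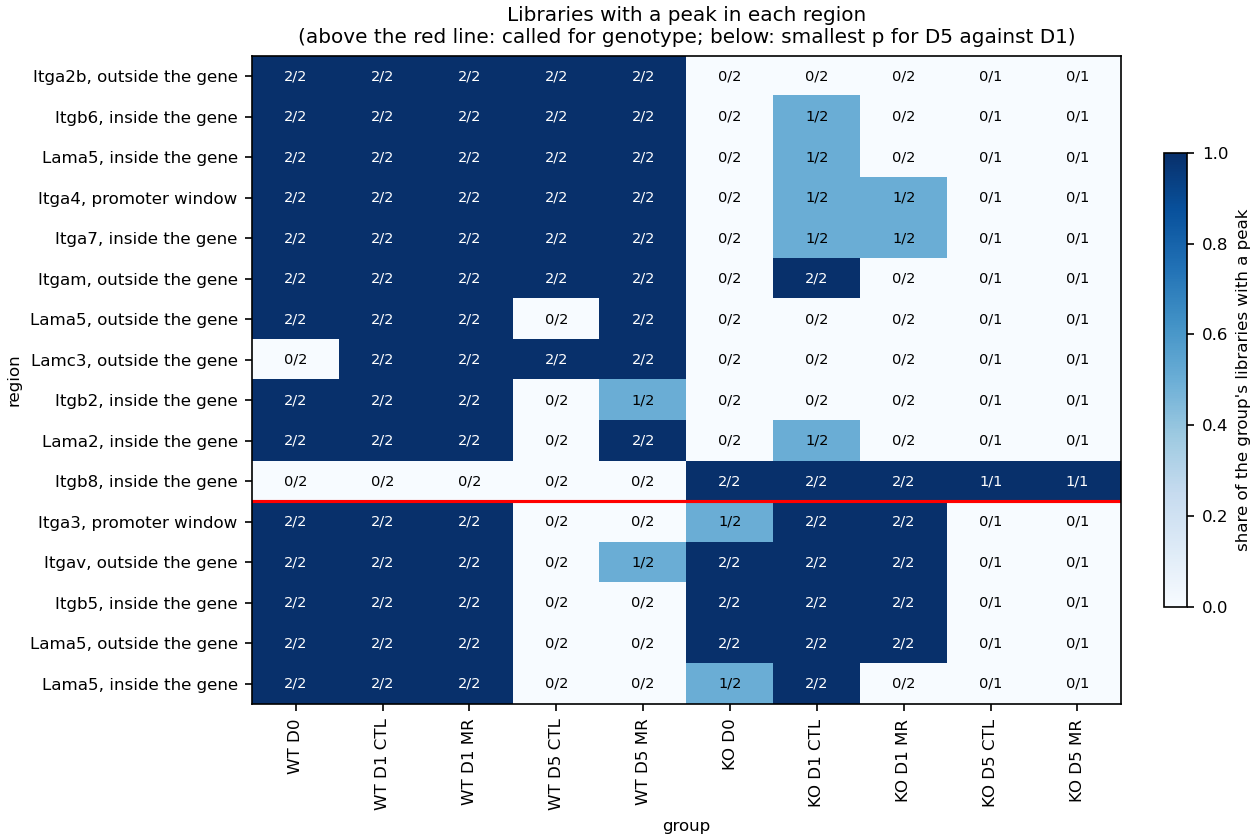
Number of libraries with a peak (written in each cell as calls of libraries; darker is a larger share) in each group for the 11 regions that passed for genotype (above the red line) and the 5 regions with the smallest p for D5 against D1 (below). The Itgb8 region is filled only in KO groups, the Itga2b region only in WT groups, and the lower regions are filled at D0 and D1 and empty in most D5 groups.

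MR and CTL libraries were compared in 4 pairs of groups, WT and KO at D1 and D5. No integrin or laminin gene or region passed, and none of all genes or regions did (0% in each of the 3 measures). With 432 arrangements the smallest p in rank was 0.00463, which over all genes gave an adjusted p of 0.152. At an unadjusted p under 0.05 stood 6 of 37 genes in rank (15.4% over all genes), 0 of 1 in gene calls (5.56% over all genes) and 1 of 13 in regions (10.2% over all regions).

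Itga7 had the smallest p in rank: it ranked 96.9 and 95.2 in WT D1 CTL against 90.3 and 89.3 in WT D1 MR, and 97.5 and 97.9 in WT D5 CTL against 85.4 and 90.1 in WT D5 MR. In KO D1 it ranked 87.5 and 93.0 in CTL and 76.8 and 80.1 in MR, and in KO line 2 at D5 87.4 in CTL and 83.9 in MR. MR libraries were thus lower in each of the 4 pairs. They did not overlap with CTL where each group had 2 libraries, while the KO D5 pair is 1 library against 1. The mean difference was −7.87 (SD 2.36), but the adjusted p of the exact permutation test was 0.152. The other genes were Itgam (−16.7, adjusted p = 0.169), Lamc1 (−10.8, adjusted p = 0.207), Itga1 (10.4, adjusted p = 0.207), Itga6 (−13.3, adjusted p = 0.270) and Itga2b (−9.40, adjusted p = 0.302), all by the exact permutation test. At D1, 3 of the 27 genes with a peak in all 8 libraries had MR above CTL without overlap in one genotype and below it in the other, beside 4.64% of all such genes. The 1 region at an unadjusted p under 0.05, inside Itgb3 (chr11:104619539-104619930), was called more often in MR by a share of 0.625 (p = 0.0278, adjusted p = 0.301 by the exact permutation test). The next 4 regions, at Itga6, Lama5, Itga3 and Itga1, each differed by 0.375 (adjusted p = 0.609 by the exact permutation test).

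Regions were also counted that both libraries of one group had and neither of the other, beside the lengths of the lists. The base is the regions with a peak in any of the 4 libraries. In WT at D1, 20 of 287 regions near these genes were in both MR and neither CTL library and 9 the reverse. The shares were 6.97% and 3.14%, against 10.2% and 1.75% of all regions. These 20 lay at 14 genes, with 3 at Itgb3 and 2 each at Itga1, Lama3, Lama4 and Lamc1. In KO at D1 the counts were 0 and 16 of 254 (0% and 6.30%), against 0.369% and 4% of all regions. KO MR lists (35201 and 48460 peaks) were shorter than KO CTL lists (46664 and 61045). In WT at D5 the counts were 47 and 2 of 181 (26.0% and 1.10%), against 27.9% and 0.494%. There MR lists held 39263 and 39538 peaks and CTL lists 20847 and 22465. When each list was cut to its 20000 strongest peaks, the D5 counts were 10 and 10 of 117 regions (8.22% and 7.08% of all regions) and the WT D1 counts 5 and 6 of 111 (7.77% and 6.77%).

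D5 was compared with D1 within 4 pairs of groups. In rank, 0 of 37 genes passed, as did 0% of all genes, and 4 of 37 were at an unadjusted p under 0.05 (24.1% over all genes). Lamc3, a gamma chain, was lower at D5 in each of the 4 pairs, with a mean difference of −8.67 (SD 4.24, adjusted p = 0.0534 by the exact permutation test). Its WT ranks were 96.7 to 97.8 at D1 and 79.6 to 94.4 at D5, without overlap. The others were Lama2 (9.56, adjusted p = 0.141), Itga3 (−2.11, adjusted p = 0.160) and Itga9 (15.7, adjusted p = 0.205) in the exact permutation test. Itga9, a receptor subunit for tenascin, ranked 53.5 to 67.2 in the WT D5 libraries and 14.9 to 33.2 in the WT D1 libraries, while both D5 libraries of KO line 2 had no peak there. As calls, 0 of 3 genes passed or had an unadjusted p under 0.05 (53.2% over all genes had one).

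Of 46 regions tested for D5 against D1, 0 passed, as did 0% of all regions, and 26 had an unadjusted p under 0.05, every one lower at D5 (50.1% over all regions). With the KO lines paired by line, 17 of 18 tested regions passed, all lower at D5, beside 90.1% of all tested regions. The promoter region of Itga3 (chr11:95076124-95077098) was called in 11 of 12 libraries of D0 and D1 and in 0 of 6 of D5 (unpaired adjusted p = 0.0724, paired adjusted p = 0.0413, exact permutation tests). A region inside Itgb5 (chr16:33903741-33904007) and one 2984 bases beyond Lama5, inside Adrm1 (chr2:180173249-180173389), were each called in 12 of 12 and 0 of 6, with the same adjusted p values in these exact permutation tests. The Lamb2 promoter region (chr9:108479856-108480105) was called in 9 of 12 and 0 of 6. A region inside Fam171b, 5570 bases from Itgav (chr2:83812487-83812870), was called in 12 of 12 and 1 of 6, and one inside Lama5 (chr2:180182213-180182385) in 9 of 12 and 0 of 6. By contrast, the promoter windows of Itgb1, Itgb5 and Itgav were called in all 18 libraries. Of the 25 genes with a promoter window, 9 had it called in no library and 6 only at D0 or D1, against 46.9% and 7.87% of the 17274 genes with a window.

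In WT CTL, 77 of 236 regions, near 26 of these genes, were in both D1 and neither D5 library and 2 the reverse. The shares were 32.6% and 0.847%, against 32.9% and 0.409% of all regions. Lama5 held 9 of the 77 and Itgb2, Itgb5, Itgb6 and Lamc3 held 6 each. In WT MR the counts were 51 and 5 of 274 (18.6% and 1.82%), against 21.9% and 1.69%. Among the 20000 strongest peaks of each list, the CTL counts were 8 lost and 18 gained of 122 regions, against 11.3% and 10.4% of all regions and the MR counts 3 lost and 11 gained of 109, against 9.12% and 8.94%. The part of list length in these counts was not tested otherwise.

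**Figure D4:**
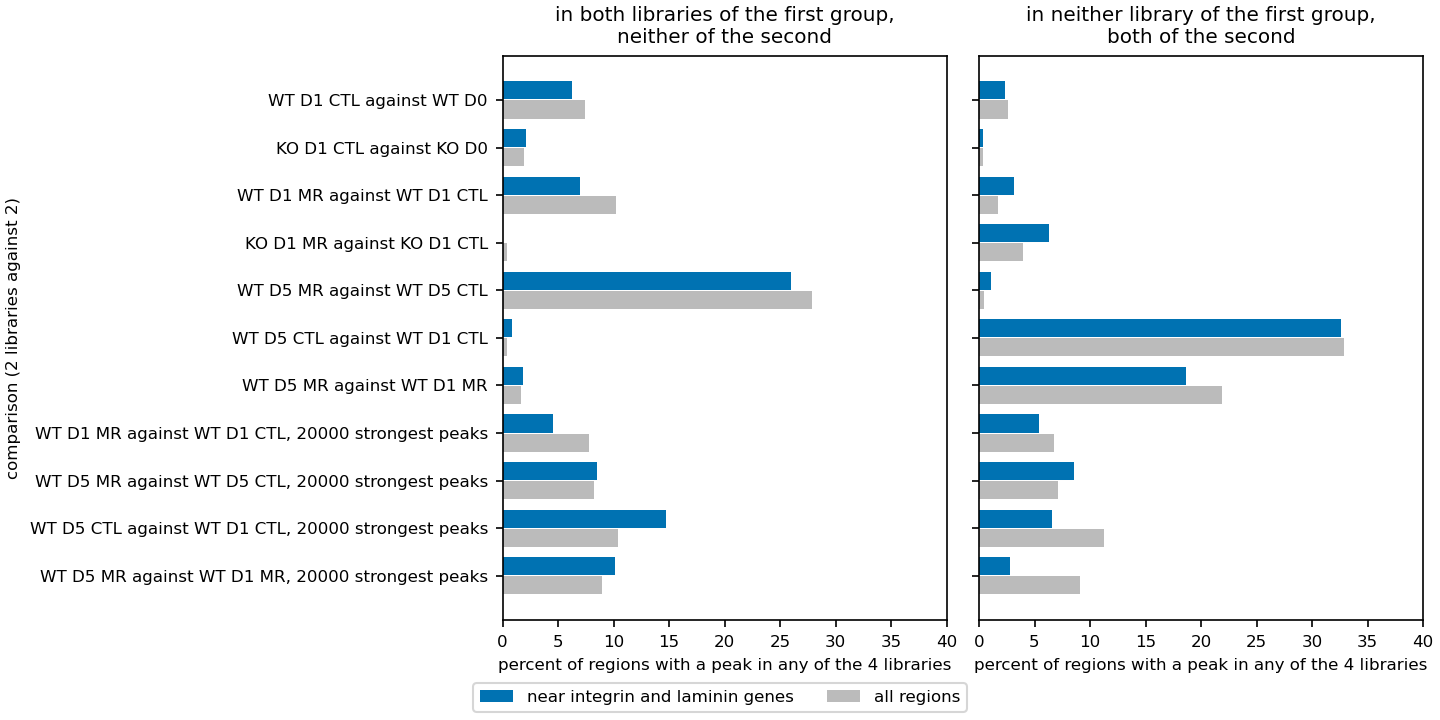
Percent of regions with a peak in both libraries of the first named group and neither of the second (left) or the reverse (right), for regions near integrin and laminin genes (blue) and all regions (grey). The tallest blue and grey bars are those of WT D5 against D1 and of WT D5 MR against CTL, and among the 20000 strongest peaks no blue bar exceeds 14.8%.

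D1 CTL and D0 were set side by side within each genotype, with no test, since the exact permutation test used here cannot reach a p of 0.05 with 2 against 2 libraries. Over the genes with a peak in all 4 libraries, in WT 9 of 29 ranked higher in both D1 libraries and 14 lower, against 21.6% and 25.7% of all such genes. Itgam stood at 41.1 and 36.0 at D0 and 76.9 and 73.0 at D1, and Itgb5 at 73.5 and 73.2 and then 88.0 and 90.6. Itgb4 went from 85.2 and 86.4 to 67.3 and 62.1, and Lamb3 from 95.2 and 92.6 to 79.6 and 71.5. In KO 2 of 29 were higher and 3 lower, against 11.2% and 14.6%. Within each KO line, 6 of 29 were higher in both lines and 8 lower in both, against 22.5% and 26.8% of all such genes. The 6 were Itga10, Itga2b, Itga6, Itgb1, Itgb6 and Lamb2, and the 8 were Itgb2, Itgb3, Itgb4, Itgb5, Itgb7, Itgb8, Lamb3 and Lamc1. Lamb3 was lower at D1 in both genotypes, with 98.8 and 95.2 at D0 and 90.95 and 77.5 at D1 in KO. Itgb5 was lower at D1 in KO (91.3 and 89.6, then 80.5 and 83.6) and higher in WT, a difference that was not tested. As regions, 16 of 254 were gained and 6 lost in WT (6.30% and 2.36%, against 7.44% and 2.63% of all regions). In KO 6 of 282 were gained and 1 lost (2.13% and 0.355%, against 1.91% and 0.353%). Of the WT gains, 3 lay at Lamc3 and 2 each at Itga7, Itgb6 and Lamb1.

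The partners of these genes were taken from 2 lists. Of 26 proteins of focal adhesions, on the inner side of integrins, 22 had a peak in all 18 libraries, beside 44.3% of all genes. In the genotype test of rank, 1 of 24 tested was higher in KO (Parva, an actin-linking partner of integrin-linked kinase, 10.9, adjusted p = 0.0247) and 2 were lower (Lims2, of the same complex, −34.9, adjusted p = 0.00803, and Fermt3, the kindlin of blood cells, −3.53, adjusted p = 0.0224), all by the exact permutation test. Of 22 basement membrane partners and other laminin receptors, 14 had a peak in all 18 libraries, and of 21 tested 1 was higher (Sspn, 12.95, adjusted p = 0.0309) and 2 lower (Dag1, the dystroglycan gene, −8.77, and Sgcb, a sarcoglycan, −7.85, both with an adjusted p of 0.0428), again by the exact permutation test. These counts stand beside 10.6% of all genes higher and 11.5% lower. The median differences were 1.06 and −0.23, beside −0.03 over all tested genes. In the MR and D5 tests 0 genes of either list passed.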

How the data were processed

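ATAC-seq libraries of C2C12 cells were made with 10 PCR cycles and sequenced paired-end, per the labels' protocols. The authors deposited 1 broad peak list per library, 787806 peaks in 20 lists, on GRCm38 per the submitters' processing notes. The aligner, peak caller and thresholds are not given in the sources used here. Each deposited list gives a display score, a fold enrichment ratio, a −log10 p-value and a −log10 q-value per peak, and the lowest −log10 q-value in any list was 1.00.

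Peaks overlapping by at least 1 base were merged over libraries into 101352 regions and assigned to the 21631 genes (RefSeq, GRCm38.p6) within 10 kb. The measures tested were whether a gene had a peak, its percentile rank by −log10 q-value, and whether a region was called. Groups came from the labels. KO was compared with WT, MR with CTL, and D5 with D1, by exact two-sided permutation tests within day, medium and genotype (1944, 432 and 324 arrangements), with Benjamini-Hochberg adjustment over all features that could reach 0.05. In rank, a gene also needed a peak in at least 2 of the libraries compared. The D5 and MR tests share libraries. The KO lines recur in each KO group and pair those libraries by line. WT and KO replicate numbers share only a number.

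Genes named by rule are those passing a test (the 10 with the smallest p if more pass), Itga7, Itga6, Itga3, Itga5, Itgav, Itgb1, Lama2, Lama4, Lama5, Lamb1, Lamb2 and Lamc1, genes without any peak, and the 5 regions per comparison with the smallest p. Other genes named, the Itgb2 region, the promoter examples and the D1 against D0 examples were chosen after their values were seen. The members and lists were chosen with earlier results of these data known. No 2 lists were identical. The tests were checked on simulated data in which libraries varied independently, so KO lines that recur across groups were not covered. Python 3.11.15, numpy 2.4.6, pandas 2.3.3 and matplotlib 3.10.9 were used. Alternatives tried were all 20 libraries, no D5 libraries, a −log10 q-value of at least 2, the 20000 strongest peaks, a 2 kb window, 50% cover of a region, ranking by fold enrichment, each replicate left out, and a replicate block. Comparing D1 CTL with D0 within KO lines, cutting the 2 against 2 counts to the 20000 strongest peaks, and setting genes without a peak to 0 were added after seeing the data.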

Additional observations from a re-analysis of the deposited data

Results flagged for a closer look

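For 3 genes the D1 libraries of WT and KO differed in opposite directions between MR and CTL, every WT library one way and every KO library the other. These are 3 of the 27 genes with a peak in all 8 D1 libraries, beside 4.64% of all such genes. The difference between genotypes was not tested. In rank, MR minus CTL was 0.99 in WT and −2.75 in KO for Itga3, 6.23 in WT and −10.7 in KO for Itgav, and −1.86 in WT and 5.24 in KO for Lama5.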

How the results depend on the processing

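In rank, 10 genes passed for genotype. None passed without the D5 libraries (0) or with the replicate block (0), and in both 0% of all genes passed. When each replicate was left out, 0 to 8 passed: 0 without either WT replicate or without KO line 2 (0% of all genes in each), 8 without KO line 1 (28.6% of all genes). With peaks within 2 kb, the differences of Itga2b (4.15) and Itgam (4.02) had the opposite sign. The call of Itga4 as a gene with a peak (1 gene) became 2 genes at a −log10 q-value of at least 2 (11.4% of all genes) and 0 among the 20000 strongest peaks (12.7%). Without D5 no integrin or laminin gene could be tested in calls, while 22.5% of all tested genes passed. When each replicate was left out, 0 to 1 passed: 1 without KO line 2 (76.0% of all genes), 0 without KO line 1 (25.2%) and 0 without either WT replicate (0%). Of regions, 11 passed for genotype, 17 with all 20 libraries (18.8% of all regions), 6 without D5 (18.8%) and 17 among the 20000 strongest peaks (28.0%, with 4 of the 11 among them). At 50% cover 0 passed (0% of all regions). When each replicate was left out, 0 to 20 passed: 0 without either WT replicate (0%), 15 without KO line 1 (24.7%) and 20 without KO line 2 (75.2%). With the replicate block 14 passed (73.1% of all regions), 11 of them the same. For D5 against D1, the 0 regions became 36 with all 20 libraries (66.2% of all regions), 5 with the replicate block (91.6%), 17 with KO lines only paired (90.1%), and 0 to 17 when each replicate was left out (17 without KO line 1). The causes were not tested. The replicate block changed no call for MR, and the other alternatives run for MR and for D5 against D1 left their counts at 0. For D5 with all 20 libraries, this was 0 of 3 genes in calls (63.7% of all genes passed) and 0 of 37 in rank (3.79%). Without KO line 1, with KO lines only paired and with the replicate block, no integrin or laminin gene could be tested in D5 calls. Of all tested genes 83.3%, 83.3% and 81.8% passed there. The D5 test without the KO D5 libraries or without KO line 2 had no feature that could reach 0.05. The shortest of the 18 lists, with 20847 peaks, was of D5, and the part of list length was not tested.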
